A study of Mus musculus with 8 samples.

Results

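The mouse mitochondrial genome encodes 13 protein-coding genes, 2 ribosomal RNA genes and 22 transfer RNA genes, and all 37 were taken from the deposited count table by their symbols, which begin with mt-, out of 55450 genes. RNA had been sequenced from cells enriched on c-Kit magnetic beads from B16F10 tumours, a pigmented mouse melanoma line, grown under the skin of wild-type C57BL6 mice. Mice aged 6 weeks received 150000 tumour cells, and tumours were removed on day 17. In 1 group the tumour cells were scramble controls (4 libraries, numbered 2 to 5). In the other they were PERK KO cells, which lack the kinase PERK that slows protein synthesis under stress in the endoplasmic reticulum (4 libraries, numbered 1 to 4). The hosts were wild-type in both groups, and the knockout was carried by the injected cells only. The labels number a tumour for each library. They do not say whether a mouse carried more than 1 tumour or whether a line was 1 clone, so p-values measure the spread between these tumours.

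Mitochondrial genes are read from both strands of a circular genome as long precursor RNAs. The heavy-strand precursor carries both ribosomal RNAs and most messenger and transfer RNAs, while the light-strand precursor carries mt-Nd6 and the remaining transfer RNAs. The transfer RNAs lie between the longer genes, and their excision releases the messenger and ribosomal RNAs, whose amounts then also depend on how fast each is degraded. The proteins are subunits of respiratory chain complexes I, III and IV and of the ATP synthase, and each complex also needs subunits encoded in the nucleus.

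Mitochondrial messenger RNAs took a larger part of every PERK KO library than of any scramble library. Of 12 that could be tested, 8 were higher in PERK KO tumours and 0 were lower, with a median log2 change of 1.69. Among the 8, 3 (mt-Co2, mt-Atp6 and mt-Co3) have near-identical copies in the nuclear genome over nearly their whole length, and their counts are uncertain. The ribosomal RNAs and the light-strand messenger RNA mt-Nd6 had smaller changes that did not pass the test, and the 8 testable transfer RNAs were divided evenly between positive and negative changes. PERK KO libraries 2 and 3 carried most of the difference. Without them, 5 messenger RNAs passed the test, with log2 changes of 0.63 to 0.80. The count of calls was not stable: leaving out any scramble library, or PERK KO library 3 alone, left 0 or 1, and a fit without the filter left 2. The 1 left was mt-Atp6, and the 2 without the filter were mt-Co2 and mt-Atp6, whose counts are uncertain.

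The 37 genes lie end to end on the mitochondrial chromosome (mm10, GENCODE M21), and 12 messenger RNAs, both ribosomal RNAs and 14 transfer RNAs belong to the heavy-strand precursor. Neighbours overlap in places. mt-Atp8 and mt-Atp6 share 43 bases, mt-Nd4l and mt-Nd4 share 7 bases, and mt-Nd5 and mt-Nd6, on opposite strands, share 14 bases. A run of 7 annotated pseudogenes on chromosome 1 (chr1:24611535-24616197) aligned to 7 mitochondrial messenger RNA genes at 99.7% to 100% identity, over 294 to 876 bases each. The outermost alignments bound the mitochondrial stretch chrM:6390-11042, and the sequence between the pseudogenes, opposite most of mt-Atp8 and 5 transfer RNA genes, was not compared. The stretch of 4653 bases runs from the end of mt-Co1 to the middle of mt-Nd4. The end of the aligned part inside mt-Nd4 (chrM:10167-11544, plus strand) is shown because it divides the gene into a stretch with a copy and a stretch without. Bases 837 to 916 of the gene follow, with the part that the pseudogene Gm28439 (chr1:24611535-24612410, minus strand) does not hold in capitals, and then the last 40 bases of the pseudogene.
mt-Nd4: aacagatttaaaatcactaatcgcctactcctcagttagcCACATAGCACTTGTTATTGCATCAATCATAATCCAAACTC
Gm28439: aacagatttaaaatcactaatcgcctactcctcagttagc

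mt-Nd3 and mt-Co1 each differ from their chromosome 1 counterpart by 1 substitution within the aligned bases. The first is T3C between mt-Nd3 (chrM:9459-9806, plus strand) and Gm28438, and the second is A1066T between mt-Co1 (chrM:5328-6872, plus strand) and Gm29216. In each token the mitochondrial base comes first and positions count from 1 at the 5′ end of the mitochondrial gene. The start of mt-Nd3 and the bases around the mt-Co1 difference are shown with the differing base in capitals, since each is the only substitution within the aligned bases, which are 345 of the 348 bases of mt-Nd3 and 483 of the 1545 bases of mt-Co1.
mt-Nd3: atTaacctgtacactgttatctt
Gm28438: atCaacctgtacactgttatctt
mt-Co1: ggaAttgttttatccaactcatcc
Gm29216: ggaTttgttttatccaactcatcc

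The light-strand messenger RNA stands apart in base composition. mt-Nd6 (chrM:13552-14070, minus strand) is 28.1% G and 5.97% C, against 12.2% G and 26.9% C in its heavy-strand neighbour mt-Cytb (chrM:14145-15288, plus strand). Their first 90 bases are shown with G in capitals, because the ratio between these genes did not overlap between the groups.
mt-Nd6: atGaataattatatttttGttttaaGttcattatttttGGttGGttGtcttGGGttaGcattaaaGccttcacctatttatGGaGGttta
mt-Cytb: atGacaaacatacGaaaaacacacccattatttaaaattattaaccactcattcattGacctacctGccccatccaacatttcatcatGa

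Levels between genes were compared as CPM per kb. CPM is counts scaled to a common library total with TMM (trimmed mean of M values) factors, and here it was divided by the annotated length. In scramble tumours mt-Cytb was highest at 7865 ± 844 CPM per kb (SD, n = 4). It was followed by mt-Co1 at 4617 ± 386, mt-Nd1 at 4312 ± 428, mt-Nd2 at 3885 ± 556, mt-Rnr1 at 3485 ± 593, mt-Rnr2 at 3176 ± 558 and mt-Nd5 at 2860 ± 325 CPM per kb. Each of these neighbours after mt-Cytb differed from the next by less than the larger of their SDs. mt-Nd4 had 1605 ± 148 and mt-Nd6 888 ± 96.0 CPM per kb.

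The other 6 messenger RNAs were far lower. These were mt-Co2 (4.76 ± 0.613 CPM per kb), mt-Atp6 (3.26 ± 0.316), mt-Nd4l (1.32 ± 0.496), mt-Co3 (1.07 ± 0.176), mt-Nd3 (0.876 ± 0.288) and mt-Atp8 (0.380 ± 0.216). All 6 lie inside the stretch bounded by the chromosome 1 alignments, although mt-Atp8 has no annotated near-identical copy of its own, and together they took 0.0227% of the messenger RNA counts, with 2 to 850 counts per library. Their median in scramble tumours was 1.20 CPM per kb, and the 5 genes wholly outside the stretch had a median 3244 times as high. mt-Nd4 and mt-Co1 have a near-identical copy of a part. They reached 4406 and 6717 CPM per kb when all their counts were divided by only the bases without that copy. A less similar pseudogene on chromosome 2, Gm13340, aligned to all 1545 bases of mt-Co1 at 97.6% identity. Whether the counting discarded reads that match several places is not given in the sources used here, and its part in these levels was not tested. Counts of the 6 genes are therefore uncertain and cannot be set against the other messenger RNAs as amounts of RNA.

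**Figure D1:**
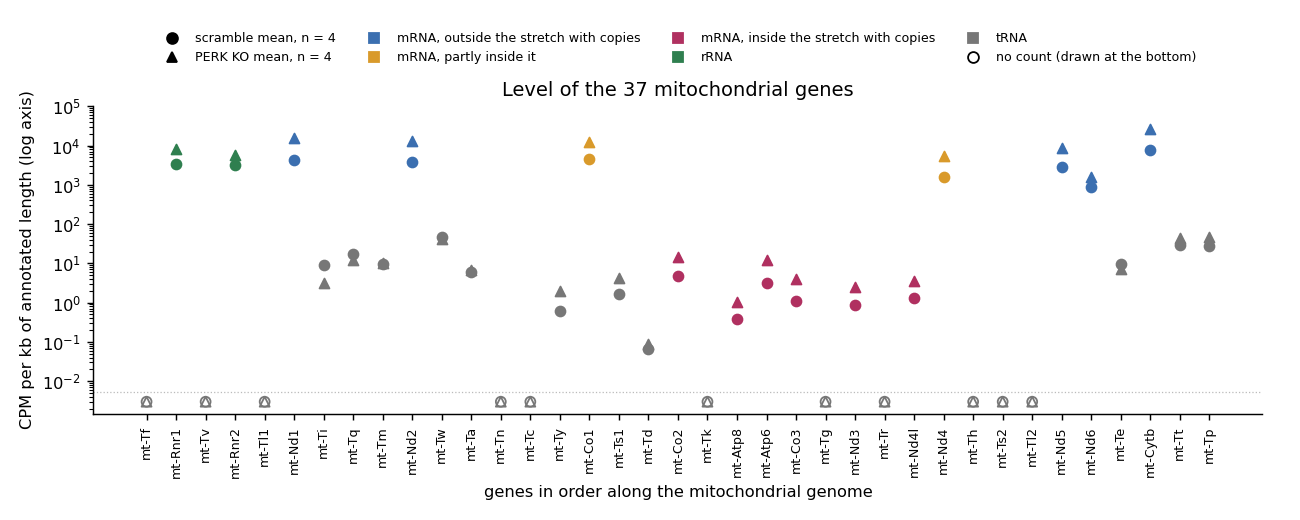
Level of each of the 37 mitochondrial genes in CPM per kb of annotated length (log axis), in order along the mitochondrial genome; circles are scramble means and triangles PERK KO means (n = 4 each), and colours mark the class and the position relative to the stretch with near-identical nuclear copies. The 6 messenger RNAs wholly inside that stretch, mt-Atp8 included, lie at 0.380 to 4.76 CPM per kb in scramble tumours, far below the 5 wholly outside it at 888 to 7865, and 11 transfer RNAs had no count.

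Mitochondrial messenger RNAs took 3.08%, 3.01%, 3.66% and 3.46% of all counts in scramble libraries 2 to 5, and 4.38%, 17.3%, 11.1% and 5.88% in PERK KO libraries 1 to 4. The lowest PERK KO library lay above the highest scramble library, and libraries 2 and 3 lay far above the other PERK KO libraries. The means were 3.302% ± 0.310 and 9.67% ± 5.84 (SD, n = 4 each), a ratio of 2.93, or 1.55 without PERK KO libraries 2 and 3. The ribosomal RNAs took 1.05%, 0.702%, 0.836% and 0.840% in scramble libraries and 0.832%, 1.88%, 2.78% and 1.01% in PERK KO libraries. Here the groups overlapped, and without libraries 2 and 3 the ratio of means went from 1.90 to 1.07. Transfer RNA counts were few in all libraries, from 265 to 848. Their mean percent of all counts was 0.00111% in scramble and 0.00116% in PERK KO libraries, a ratio of 1.04, and the groups overlapped. Of mitochondrial counts, which are mostly messenger RNA, they made up 0.0244%, 0.0265%, 0.0336% and 0.0221% in scramble libraries. In PERK KO libraries they made up 0.0175%, 0.00931%, 0.00778% and 0.0123% of mitochondrial counts, without overlap. In bulk RNA, more mitochondrial RNA per cell and more cells rich in mitochondrial RNA cannot be told apart. A percent of counts also cannot tell more mitochondrial RNA from less of the other RNA.

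**Figure D2:**
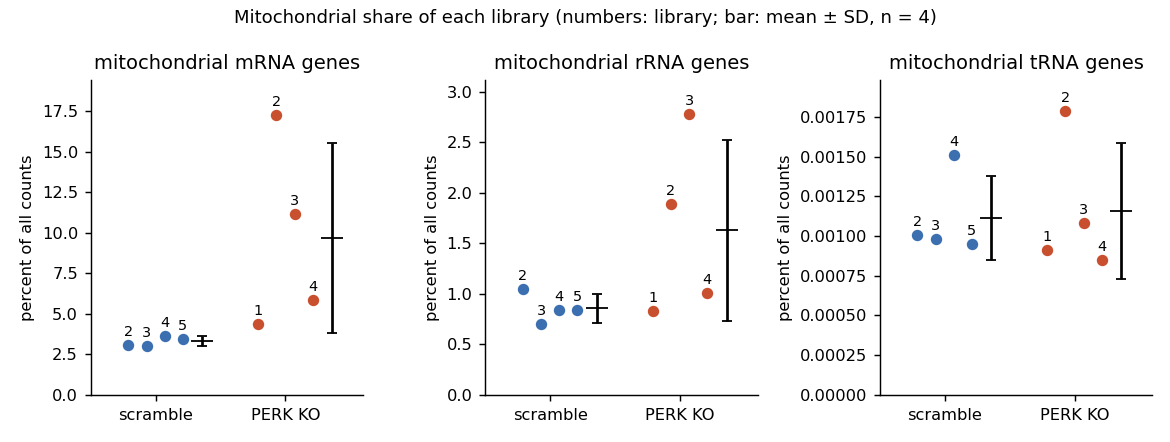
Percent of all counts in mitochondrial messenger, ribosomal and transfer RNA genes for each library (numbered points; separate linear axes from 0), with the mean ± SD of 4 libraries beside them. Messenger RNA separates the groups, with scramble at 3.01% to 3.66% and PERK KO at 4.38% to 17.3%, while ribosomal and transfer RNA overlap.

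The test was edgeR's quasi-likelihood test over 16662 genes that passed a filter on low counts, at a Benjamini-Hochberg adjusted p of 0.05. It called 13.8% of all tested genes, 7.66% higher and 6.13% lower in PERK KO tumours, with a median log2 change of -0.02. Against that background, 8 of the 12 tested messenger RNAs, 0 of 2 ribosomal RNAs and 0 of 8 transfer RNAs were called higher, and 0 were called lower. Among the 8, 3 lie wholly inside the stretch with copies, where counts are uncertain. Unadjusted p-values under 0.05 were found for 9 messenger RNAs, both ribosomal RNAs and 0 transfer RNAs. DESeq2 and limma-voom each called 9 messenger RNAs and 1 ribosomal RNA higher, 0 transfer RNAs, and 0 members lower. The groups did not overlap, with PERK KO higher, for 8 of the 12 tested messenger RNAs, against 10.2% of all tested genes (11.1% did not overlap with PERK KO lower), and also for mt-Atp8, which did not pass the filter. The members come from shared precursors and are not independent of each other.

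Complex I, which takes electrons from NADH, has 7 subunits encoded in the mitochondrion. mt-Nd1, a subunit of its membrane arm, had 3747, 3825, 4598 and 4339 CPM in scramble libraries 2 to 5 and 5487, 29167, 16274 and 7623 CPM in PERK KO libraries 1 to 4. The groups did not overlap, and libraries 2 and 3 were highest. Its log2 change was 1.83 (SE 0.50, edgeR adjusted p = 0.0490). mt-Nd2, a second membrane subunit, had 3475, 3596, 4537 and 4525 CPM against 5840.4, 26394, 14286 and 8175 CPM. It again showed no overlap, with a log2 change of 1.76 (SE 0.45, edgeR adjusted p = 0.0372).

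mt-Nd4 and mt-Nd5 encode the large pump-like subunits at the far end of the membrane arm. mt-Nd4 had 2015 to 2407 CPM in scramble and 3044, 15127, 7887 and 4323 CPM in PERK KO libraries 1 to 4 (log2 change 1.78, SE 0.47, edgeR adjusted p = 0.0441). mt-Nd5 had 4701 to 5756 CPM in scramble and 7049, 30796, 16761 and 9041 CPM in PERK KO libraries (log2 change 1.61, SE 0.44, edgeR adjusted p = 0.0482). Both kept PERK KO libraries 1 and 4 above all scramble libraries. mt-Nd3 and mt-Nd4l, small membrane subunits inside the stretch with copies, had only 5 to 72 and 12 to 97 counts per library. Their log2 changes of 1.53 (SE 1.081) and 1.41 (SE 0.93) missed the threshold, with an edgeR adjusted p of 0.426 and 0.391. For mt-Nd3 the sign turned without PERK KO libraries 2 and 3, to -0.74.

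mt-Nd6 is the complex I subunit on the light strand. The strand setting of the counting is not given, so whether its counts and ratios include reads of the opposite strand is not known. It had 434, 433, 535 and 440.5 CPM in scramble libraries and 436, 1473, 827 and 490.0 CPM in PERK KO libraries. PERK KO libraries 1 and 4 lay within the scramble range and libraries 2 and 3 above it. The log2 change was 0.81 (SE 0.37, edgeR adjusted p = 0.211), and without libraries 2 and 3 it was 0.01.

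mt-Cytb is the only mitochondrial subunit of complex III, which passes electrons to cytochrome c. It was the most counted member, with 8354, 7998, 9944 and 9694 CPM in scramble libraries and 13062, 63692, 32005 and 15520.3 CPM in PERK KO libraries. Every PERK KO library lay above every scramble library. The log2 change was 1.79 (SE 0.49, edgeR adjusted p = 0.0490).

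Complex IV, the oxidase that reduces oxygen, takes its catalytic core from the mitochondrion. mt-Co1 had 7293, 6635, 7909 and 6698 CPM in scramble and 7660.05, 33647, 24799 and 12161 CPM in PERK KO libraries. PERK KO library 1 fell inside the scramble range, and the log2 change of 1.46 (SE 0.42) missed the threshold, with an edgeR adjusted p of 0.0589. mt-Co2 had 159 to 194 counts per scramble library and 145, 850, 437 and 167 counts in PERK KO libraries. Scaled to CPM the groups did not overlap, at 2.88 to 3.75 against 4.34 to 20.7, with a log2 change of 1.62 (SE 0.45, edgeR adjusted p = 0.0334). mt-Co3 had 0.688 to 1.01 CPM in scramble and 1.64, 6.07, 3.81 and 1.40 CPM in PERK KO libraries (log2 change 1.94, SE 0.57, edgeR adjusted p = 0.0435).

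The ATP synthase has mt-Atp6, part of the proton channel, and mt-Atp8, a small stalk subunit. mt-Atp6 had 2.08, 1.99, 2.43 and 2.38 CPM in scramble and 3.58, 17.8, 8.43 and 4.08 CPM in PERK KO libraries. The groups did not overlap (log2 change 1.93, SE 0.47, edgeR adjusted p = 0.0199). mt-Atp8 (chrM:7766-7969, plus strand) had 2, 3, 4 and 7 counts in scramble and 5, 12, 9 and 6 in PERK KO libraries, and was not tested. It is shown whole, with the 43 bases shared with mt-Atp6 in capitals, since a read across that end belongs to both genes.
mt-Atp8: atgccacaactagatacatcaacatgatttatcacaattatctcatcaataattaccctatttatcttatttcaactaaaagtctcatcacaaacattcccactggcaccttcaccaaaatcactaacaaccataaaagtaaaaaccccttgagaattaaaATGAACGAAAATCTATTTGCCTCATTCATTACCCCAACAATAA

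**Figure D3:**
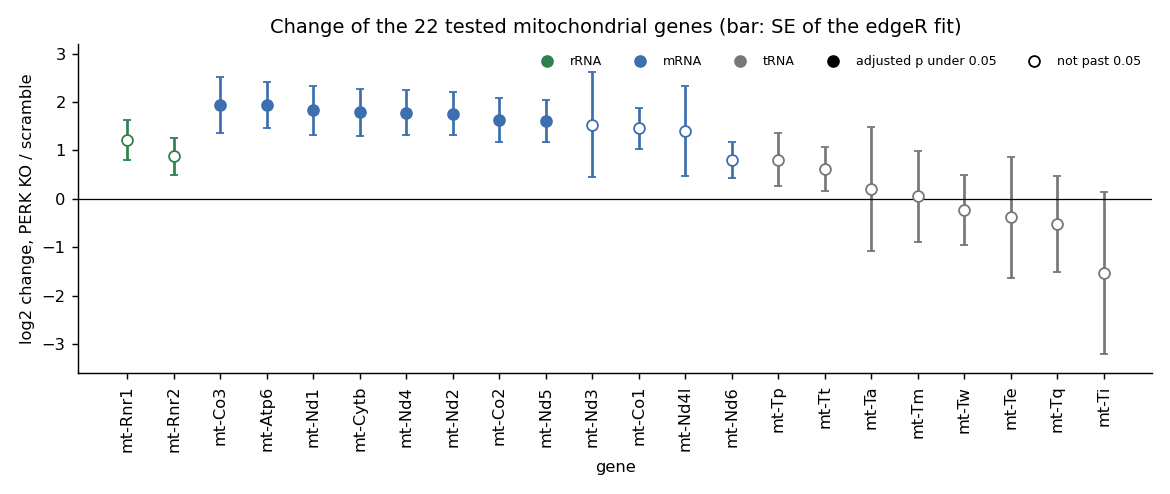
Log2 change in PERK KO against scramble tumours for the 22 tested mitochondrial genes, with the SE of the edgeR fit (n = 4 and 4); filled points have an adjusted p under 0.05. The 12 messenger RNAs lie between 0.81 (mt-Nd6) and 1.94 (mt-Co3), and the 8 transfer RNAs spread around 0 with wide errors.

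The calls lay close to the threshold. Leaving out scramble library 2, 3, 4 or 5 left 0, 0, 1 and 0 messenger RNAs called, and leaving out PERK KO library 1, 2, 3 or 4 left 9, 5, 1 and 9. Where 1 was left it was mt-Atp6, whose counts are uncertain. Over all tested genes, 3.69% to 8.01% were called higher in these fits. Without PERK KO libraries 2 and 3 together, a setting chosen after the data were seen, the 5 called were mt-Nd1 (0.67), mt-Nd2 (0.80), mt-Nd4 (0.74), mt-Nd5 (0.63) and mt-Cytb (0.67, log2, edgeR adjusted p = 0.0114 to 0.0193). That fit called 7.2% of all tested genes higher and 7.21% lower.

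The ribosomal RNAs of the small and large mitochondrial ribosome subunits are mt-Rnr1 (chrM:70-1024) and mt-Rnr2 (chrM:1094-2675). mt-Rnr1 had 4161, 2940.2, 3008 and 3205 CPM in scramble and 3648, 10349.9, 12729 and 4213 CPM in PERK KO libraries. mt-Rnr2 had 6052, 3897, 5136 and 5013 CPM in scramble and 4439.5, 11493, 15492 and 5643 CPM in PERK KO libraries. For both, PERK KO library 1 lay within the scramble range and library 3 was highest, while for all 12 tested messenger RNAs library 2 was highest. The log2 changes were 1.22 (SE 0.41, edgeR adjusted p = 0.0949) for mt-Rnr1 and 0.88 (SE 0.38, edgeR adjusted p = 0.184) for mt-Rnr2. Without libraries 2 and 3 they were 0.24 and 0.01.

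Ratios between members do not depend on how a library is scaled. Of 4 ratios, 0 passed after adjustment over the 4 (exact permutation test, two-sided, with 70 assignments and a smallest possible p of 0.0286). A ratio at that smallest p could pass only if most of the 4 were at it too. The count of 0 therefore does not show that the ratios were alike in the groups. mt-Nd6 to mt-Cytb was 0.0520, 0.0541, 0.0538 and 0.0454 in scramble libraries and 0.0334, 0.0231, 0.0258 and 0.0316 in PERK KO libraries. All 4 PERK KO libraries, including 1 and 4, lay below all scramble libraries, with a log2 difference of -0.86 (SE 0.14, exact permutation p = 0.0286, adjusted p = 0.0571). mt-Rnr2 to mt-Nd1, the large ribosomal RNA against the next messenger RNA, was 1.62, 1.02, 1.12 and 1.16 against 0.809, 0.394, 0.952 and 0.740. Again the groups did not overlap, with a log2 difference of -0.81 (SE 0.31, exact permutation p = 0.0286, adjusted p = 0.0571).

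The remaining ratios differed less. mt-Rnr2 to mt-Rnr1 had means of 1.51 ± 0.162 and 1.22 ± 0.0936 (SD, n = 4), and its groups overlapped (log2 difference -0.31, SE 0.10, exact permutation p = 0.0571, adjusted p = 0.0762). mt-Nd1 to mt-Cytb, which sit near the start and the end of the heavy-strand precursor, had means of 0.459 ± 0.0144 and 0.469 ± 0.0390 (log2 difference 0.03, SE 0.06, exact permutation p = 0.743). Within messenger RNA counts, mt-Nd6 took 1.45%, 1.48%, 1.502% and 1.302% in scramble and 1.02%, 0.735%, 0.732% and 0.854% in PERK KO libraries. Of the 7 messenger RNAs that took more than 0.1%, mt-Nd6 was the only gene whose share did not overlap between groups. mt-Cytb took 27.9% ± 0.546 and 29.5% ± 2.15, and mt-Co1 took 22.2% ± 1.86 and 19.5% ± 2.49 (SD, n = 4).

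**Figure D4:**
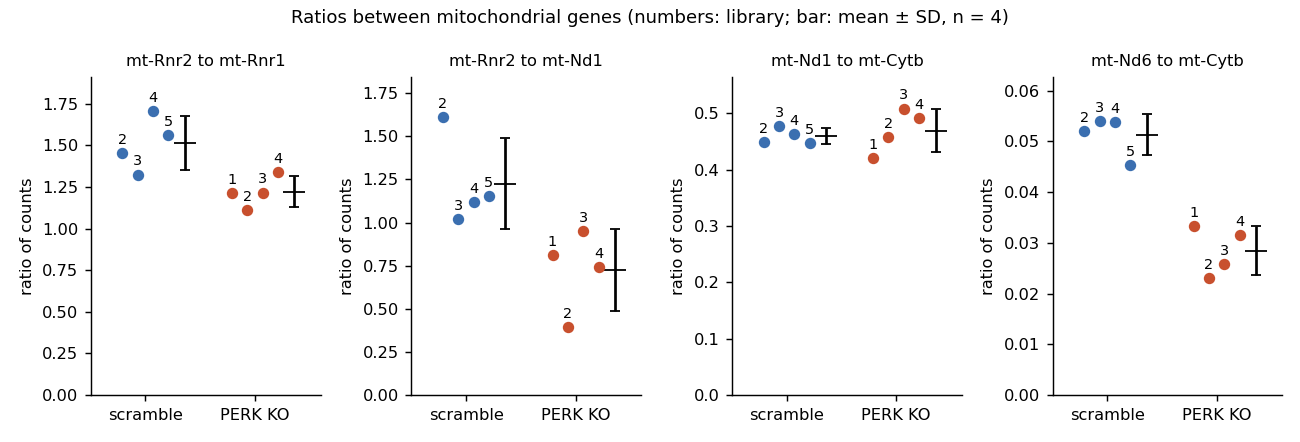
Ratio of counts between 4 pairs of mitochondrial genes in each library (numbered points), with the mean ± SD of 4 libraries beside them; axes start at 0. For mt-Nd6 to mt-Cytb the PERK KO libraries lie at 0.0231 to 0.0334 and the scramble libraries at 0.0454 to 0.0541, while mt-Nd1 to mt-Cytb overlaps.

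The 22 transfer RNAs, which carry amino acids to the mitochondrial ribosome, are 59 to 75 bases long, shorter than the sequenced reads of 105 bases, so a read of full length cannot lie inside such a gene alone. No count in any library was found for 11 of them (mt-Tf, mt-Tv, mt-Tl1, mt-Tn, mt-Tc, mt-Tk, mt-Tg, mt-Tr, mt-Th, mt-Ts2 and mt-Tl2). A floor of 3 counts allows up to 0.0515 CPM in the deepest and 0.1005 CPM in the shallowest library after TMM scaling, for counting error only. A further 3 had counts but were not tested: mt-Ts1 with 71, mt-Ty with 29 and mt-Td with 2 counts over all libraries. The most abundant were mt-Tw for tryptophan (chrM:4950-5016, plus strand), mt-Tp for proline (chrM:15356-15422, minus strand), mt-Tt for threonine (chrM:15289-15355, plus strand) and mt-Tq for glutamine (chrM:3772-3842, minus strand). Their whole genes are shown, with no capitals, to give the length of what could be counted.
mt-Tw: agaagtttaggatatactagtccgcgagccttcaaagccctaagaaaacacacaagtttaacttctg
mt-Tp: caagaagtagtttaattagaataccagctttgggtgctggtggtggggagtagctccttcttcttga
mt-Tt: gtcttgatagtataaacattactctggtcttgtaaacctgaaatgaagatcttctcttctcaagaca
mt-Tq: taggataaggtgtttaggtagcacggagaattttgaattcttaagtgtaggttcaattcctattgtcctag

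mt-Tw had 214, 161, 235 and 61 counts in scramble and 9, 202, 194 and 47 in PERK KO libraries (log2 change -0.23, SE 0.72, edgeR adjusted p = 0.893). mt-Tp had 46, 119, 132 and 85 against 68, 275, 77 and 83 counts (log2 change 0.81, SE 0.55, edgeR adjusted p = 0.408). The values of both overlapped between the groups. mt-Tt had 1.98 ± 0.766 CPM in scramble and 3.04 ± 0.927 CPM in PERK KO tumours (log2 change 0.62, SE 0.45, edgeR adjusted p = 0.446), and mt-Tq had 1.24 ± 0.945 and 0.859 ± 0.822 CPM (log2 change -0.53, SE 0.99, edgeR adjusted p = 0.815). The other tested transfer RNAs, mt-Ta, mt-Tm, mt-Te and mt-Ti, had changes of 0.20, 0.05, -0.38 and -1.53, with errors of 0.93 to 1.68 on the log2 scale, and 0 passed. mt-Ti had 64, 9, 28 and 34 counts in scramble libraries and 0, 36, 0 and 0 in PERK KO libraries, so its PERK KO signal came from library 2 alone. Without that library mt-Ti was called lower (edgeR adjusted p = 0.0393), with a fitted log2 change of -7.90 that is no measure of size because every remaining PERK KO library was at 0.

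The 7 chromosome 1 copies had 9 to 1016 counts per library, and all 7 had positive log2 changes, from 0.29 to 2.504. The test called 4 of them higher, against 7.66% of all tested genes. Gm10925, the copy of mt-Atp6, had 194, 165, 175 and 216 counts in scramble and 146, 1016, 576 and 293 in PERK KO libraries (log2 change 1.82, SE 0.43, edgeR adjusted p = 0.0163). The others were Gm28437 (2.504, copy of mt-Co3), Gm28439 (2.24, mt-Nd4) and Gm29216 (1.99, mt-Co1). PERK KO library 2 was highest for all 4, as for the mitochondrial genes they repeat. Gm28661, Gm28438 and Gm10222 (copies of mt-Co2, mt-Nd3 and mt-Nd4l) had log2 changes of 1.74, 0.58 and 0.29 and did not pass. A read that fits both places cannot be assigned to either, so these values are uncertain. On chromosome 2, Gm13339, Gm13340 and Gm13341 aligned to mt-Nd2, mt-Co1 and mt-Co2 at 95.9% to 97.6% identity. Their log2 changes of 2.48, 2.32 and 2.02 did not pass (edgeR adjusted p = 0.0695, 0.0508 and 0.0602).

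Few nuclear genes of the same complexes passed the test, and their share lay near that of all genes in the lower direction. Of 74 tested nuclear subunits of complexes I, III, IV and V, edgeR called 0 higher and 7 lower (0% and 9.46%), against 7.66% and 6.13% of all tested genes, with a median log2 change of -0.03. At an unadjusted p under 0.05 there were 5 higher and 16 lower, DESeq2 called 2 higher and 7 lower, and limma-voom 0 higher and 9 lower. The difference between nuclear and mitochondrial subunits was not itself tested. Atp5b and Atp5a1, the catalytic-head subunits of the ATP synthase, had log2 changes of -0.38 (SE 0.09, edgeR adjusted p = 0.0146) and -0.35 (SE 0.08, edgeR adjusted p = 0.0181). Atp5b had 1067, 997, 1034 and 950.5 CPM in scramble and 763, 766, 707 and 876 CPM in PERK KO libraries, without overlap. Also lower were Atp5g2 (-0.70), the complex I subunits Ndufa3 (-0.54) and Ndufs1 (-0.40) and the complex III core subunits Uqcrc1 (-0.41) and Uqcrc2 (-0.48). In complex IV, 0 of 11 passed (1 higher and 2 lower at an unadjusted p under 0.05; 0 by DESeq2 and 1 by limma-voom). Its most abundant members were Cox6a1 (339 ± 28.7 and 360 ± 53.1 CPM) and Cox6c (281 ± 35.8 and 326 ± 60.2 CPM). Without PERK KO libraries 2 and 3, 3 of the nuclear subunits, all of complex I, were called higher and 7 lower. Those lower were then 3 of complex I, 0 of complex III and 4 of complex V, so Uqcrc1 and Uqcrc2 were no longer called.

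Of 178 tested nuclear genes for mitochondrial gene expression, 1 was called higher and 4 lower (0.562% and 2.25%, against 7.66% and 6.13% of all tested genes), with a median log2 change of -0.08. Without PERK KO libraries 2 and 3, 5 were higher and 5 lower. Polg, the DNA polymerase of mitochondria, had 71.7, 68.5, 64.5 and 60.4 CPM in scramble and 42.1, 36.8, 46.2 and 42.8 CPM in PERK KO libraries. The groups did not overlap, and the log2 change was -0.66 (SE 0.10, edgeR adjusted p = 0.00249). The translation factors Gfm2, Tufm and Guf1 fell by 0.59, 0.59 and 0.56, and Mrpl13, a ribosomal protein, rose by 0.34. The transcription genes Tfam, which packages and activates mitochondrial DNA, and Polrmt, the RNA polymerase, had changes of -0.10 and -0.23 and did not pass (edgeR adjusted p = 0.781 and 0.601). Lrpprc and Slirp, which together stabilise heavy-strand messenger RNAs, had -0.32 and -0.25 (edgeR adjusted p = 0.0736 and 0.404).

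By list, calls were 0 of 11 for transcription, 1 lower of 16 for DNA upkeep, 0 of 36 for RNA processing and decay (led by Rexo2 and Ptcd3), 3 lower of 14 for translation factors, 0 of 22 for transfer RNA synthetases, 1 higher of 47 for the large and 0 of 32 for the small ribosomal subunit. In the 4 lists with 0 calls by edgeR, unadjusted p-values under 0.05 numbered 0, 2, 4 and 5 in that order, DESeq2 called 0, 0, 1 and 2, and limma-voom 0, 1, 0 and 1. Among 10 biogenesis regulators, 1 was lower. Ppargc1a is a coactivator in mitochondrial biogenesis that is active in some melanomas. It had 250.3, 270.3, 249 and 269 CPM in scramble and 128, 95.5, 127 and 119 CPM in PERK KO libraries. The groups lay far apart, and the log2 change was -1.14 (SE 0.10, edgeR adjusted p = 0.000114). PERK KO library 2, the highest in mitochondrial messenger RNA, was lowest in Ppargc1a and Polg. Library 3, the next highest, had the most Polg of the PERK KO group (46.2 CPM), and its Ppargc1a of 127 CPM lay near the group's highest value of 128. A link was not tested.

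**Figure D5:**
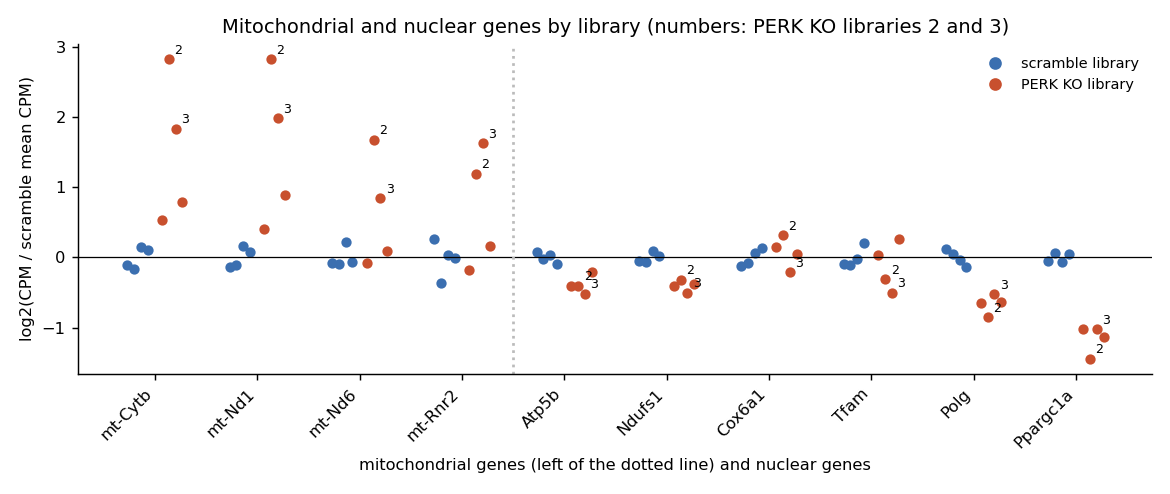
Level of 4 mitochondrial and 6 nuclear genes in each library as log2 of CPM over the scramble mean; each point is a library, and PERK KO libraries 2 and 3 are numbered. mt-Cytb and mt-Nd1 lie above 0 in all PERK KO libraries, mt-Nd6 and mt-Rnr2 near or above 0, and Atp5b, Ndufs1, Polg and Ppargc1a below 0 in all 4.

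The labels and the cell makeup were checked in the same libraries. Eif2ak3, the gene of PERK, was lower in all 4 PERK KO libraries (54.3 ± 4.67 against 13.8 ± 7.07 CPM), and Kit did not pass (196 ± 23.7 against 175 ± 37.8 CPM, edgeR adjusted p = 0.559). Summed over 10 melanocyte markers, scramble libraries had 23735 to 24266 CPM and PERK KO libraries 16052 to 19531 CPM (6 of 10 lower), so melanocyte-lineage RNA was abundant in fractions labelled as precursors. The blood progenitor markers, Kit among them, summed to 204 to 271 and 234 to 434 CPM, and Mpo and Prtn3 had no count. Kit alone had 170 to 223 CPM in scramble and 139 to 211 CPM in PERK KO libraries, most of each scramble sum. Of 7 tested, only 4 had a positive change, 3 were called higher (Gata2, Flt3 and Ly6a, each without overlap) and 0 lower. At an unadjusted p under 0.05, 3 were higher and 1 lower. Pan-leukocyte markers summed to 54.9 to 109 and 255 to 1023 CPM (9 of 9 higher), mast cell markers to 17.9 to 154 and 674 to 3003 CPM (7 of 7) and simple epithelium markers to 0.542 to 2.42 and 68.2 to 185 CPM (7 of 7). These 3 sums, like the percent of mitochondrial messenger RNA, were higher in every PERK KO library than in any scramble library. The sums were highest in PERK KO library 4 and the messenger RNA percent in library 2. A link between them was not tested.

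Skeletal muscle, a tissue rich in mitochondria, had marker sums of 0.258 to 0.996 CPM in scramble and 10.7, 1.68, 52.1 and 16.04 CPM in PERK KO libraries (0 of 4 tested passed with edgeR, 2 had an unadjusted p under 0.05, and DESeq2 called 1 and limma-voom 0). Library 2, with the most mitochondrial RNA, had the least muscle signal of the PERK KO group, and library 3, the next highest in mitochondrial RNA, had the most. Myh4 and Tnnt3 were at 0 in library 2 and at 30.2 and 7.06 CPM in library 3. Fibroblast sums were 14.5 to 206 and 54.8 to 193 CPM (1 of 6 higher), endothelial sums 32.8 to 179 and 68.6 to 243 CPM (0 of 5), erythroid sums 4.04 to 10.3 and 2.81 to 14.5 CPM (0 of 4), and adipocyte sums 0 to 0.130 and 0 to 0.502 CPM (none tested). The nuclear-retained RNAs Malat1 (3148 ± 368 against 2977 ± 983 CPM) and Neat1 (242 ± 62.9 against 311 ± 129 CPM) did not pass. Both were highest in PERK KO library 3, at 4432 and 486 CPM, and PERK KO library 2 had 2715 and 318 CPM. The part of cell makeup in the mitochondrial changes was not tested.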

How the data were processed

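RNA was sequenced from 8 libraries of c-Kit bead-enriched tumour cells. Per the labels' protocols, 100 ng of RNA entered a strand-specific kit and reads were pairs of 105 bases. The submitters' processing notes name bcl2fastq, STAR 2.5.3a, HTSeq 0.6.1, DESeq2 1.30.1 and mm10. Settings for strand and for reads matching several places are not given in the sources used here. The table deposited by the authors holds raw counts per gene; a second deposited table, used only as a check, gives a signal in which each library's counts are scaled by a constant. Library totals were 44950033 to 56697163 counts in scramble and 29006949 to 47530393 counts in PERK KO libraries, and replicates differed beyond sampling noise.

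All 55450 identifiers matched GENCODE M21, the source of positions and sequences. Genes were filtered with filterByExpr, scaled by TMM (factors 0.863 to 1.03; 0.979 to 1.06 from nuclear genes alone) and tested with edgeR 4.0.16 (robust quasi-likelihood, ~ group, R 4.3.3), with adjustment over all 16662 genes. The biological coefficient of variation was 46.3%. The scripts were tested on simulated data. Near-identical copies were those with at least 99% identity over at least 200 bases by BLAST 2.17.0. This search was made after the data were seen and replaced a list of copies, some of whose entries were not copies.

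The members and gene lists were chosen with earlier results of these data known. All 37 members are accounted for. Of the transfer RNAs the 4 most abundant are described, and of each nuclear list up to 4 called genes by p, or the 2 of highest level in lists without a call, plus Tfam, Polrmt, Lrpprc, Slirp, Polg, Ppargc1a, Eif2ak3 and Kit; some marker genes so taken are given only in sums. Alternatives were DESeq2 1.42.0, voom (limma 3.58.1), other scalings and filters, a replicate block, other denominators, an added count and leaving out libraries.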

Additional observations from a re-analysis of the deposited data

Results flagged for a closer look

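In groups of 4 libraries, a value was taken as standing apart when its gap to the nearest other exceeded 0.829 of the group's range. Chance gives this in about 1 in 20 groups, and 4 of the 66 groups tested met it. PERK KO library 2 stood apart in 3 of them. It had 0.878 CPM of the isoleucine transfer RNA mt-Ti, with the other PERK KO libraries at 0. It had 6.71 CPM of mt-Tp, against 1.79 to 2.28 CPM in the others, and 2.37 CPM of mt-Nd4l, against 0.468 to 0.766 CPM. In the scramble group, library 4 had 535 CPM of mt-Nd6, against 433 to 440 CPM in the others.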

How the results depend on the processing

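The count of messenger RNAs called higher (8) stayed at 8 or 9 with RLE, upper-quartile, total-count and nuclear-only scaling, the stricter filter, DESeq2 and voom. It was 2 without a filter (mt-Co2 and mt-Atp6, whose counts are uncertain). It was 5 without PERK KO libraries 2 and 3 (added after seeing the data) and 0 to 9 when a library was left out. Ribosomal RNA calls went from 0 to 1 with DESeq2 and with voom (mt-Rnr1 in both) and ran from 0 to 2 when a library was left out. Transfer RNA calls lower were 1 (mt-Ti) without PERK KO libraries 2 and 3 and 0 to 1 when a library was left out. Over all genes, 639 to 1372 were higher and 439 to 1244 lower when a library was left out, and upper-quartile scaling left 653 lower. Numbers shared by both groups (2, 3 and 4) did not pair the libraries: their deviations correlated at -0.01, 0.10 and -0.20. A fit with the replicate block called 127 genes higher and 81 lower, and 0 mitochondrial messenger RNAs.

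Signs that turned belonged to values that had not passed. With the replicate block mt-Tq was at 0.33 and mt-Tm at -0.25. With voom mt-Tm was at -0.10 and mt-Ta at -0.60. Without PERK KO libraries 2 and 3, mt-Ta was at -0.81, mt-Nd3 at -0.74, the log2 difference of mt-Nd1 to mt-Cytb at -0.0151, and the difference in transfer RNA percent at -0.000233 percentage points. When a library was left out, mt-Tm ran from -0.25 to 0.39, mt-Tw from -0.67 to 0.14, mt-Ta from -0.52 to 0.78, mt-Te from -1.10 to 0.0554, mt-Nd1 to mt-Cytb from -0.0112 to 0.0807, and the transfer RNA difference from -0.000166 to 0.000176 percentage points. The causes were not tested. Transfer RNA values rest on few counts.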
